A study of Drosophila melanogaster with 6 samples.

Results

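Transcripts of the corepressor proteins that work with lid were followed in wing imaginal discs with and without lid knockdown. The gene lid encodes a Drosophila histone demethylase and is now named Kdm5. The names searched were HDAC1, Sin3A, Pf1, MRG15, CG3815, Caf1-55, CoRest and Hcf. A probe set was taken when the probe-to-gene table paired it with 1 gene symbol and that symbol was one of these 8 names. The rule found 8 probe sets of 18769 tested, which stand for 6 genes of 11983. Pf1 is an older name of CG3815 in the gene table, so both names stand for 1 gene with 1 probe set. No probe set was found for Sin3A by this rule, and Sin3A was not analysed here. CoRest had 3 probe sets, which share a target and are not independent of each other.

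Expression was measured on 6 one-colour arrays, 2 for each of 3 groups, with 30 wing discs per sample from wall-climbing larvae of the last instar grown at 25 °C. The GFP RNAi group carried a hairpin against GFP under the act5C-Gal4 driver, a broadly active actin promoter, in a w1118 background. The LID RNAi group combined the lid allele k06801 with a hairpin against lid under the same driver, so that allele and hairpin cannot be told apart. The wild type group was titled wt with no RNAi, although its background field also names w1118 with the driver. A manufacturer's control probe set read 3.07 and 2.96 in log2 on the wild type arrays and 11.32 to 11.91 on the RNAi arrays, which separates them as the titles do. Whole discs are a mixture of epithelium and attached cells, so fewer cells of a type and less RNA per cell cannot be told apart. No label states that both arrays of a group stem from separately dissected larvae, and the p-values may therefore cover technical spread only.

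As background, Kdm5 removes methyl groups from trimethylated lysine 4 of histone H3, a mark of active promoters. It is found with the Sin3 corepressor, in which Sin3A is the scaffold and HDAC1 (also called Rpd3) removes acetyl groups from histones. The PHD finger protein Pf1 and the chromodomain protein MRG15 belong to the form of the complex that contains Lid, and Caf1-55 is a histone-binding subunit. CoRest joins HDAC1 to the demethylase Su(var)3-3 in a separate complex, and Hcf is an adaptor of several chromatin-modifying complexes.

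The targeted transcript was lowered in the LID RNAi discs. Kdm5 was at 8.36 and 8.04 there, against 10.32 and 10.45 with GFP RNAi and 10.42 and 10.33 for wild type (all values are RMA log2 levels). The change was -2.19 ± 0.13 (SE, n = 2 arrays per group) against GFP RNAi, with a 95% interval from -2.54 to -1.84 and a limma adjusted p of 0.0309. Left out singly, each of the 6 arrays ended this call, while the change stayed between -2.35 and -2.02. The wild type arrays do not enter this change, which was -2.19 without either of them, and only the estimate of its spread used them. Against wild type the adjusted p was 0.00877, and the call ended without wild type replicate 1 (0.0805) or replicate 2 (0.0709).

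None of the 8 corepressor probe sets passed the test in any comparison. In LID RNAi against GFP RNAi limma called 0 of 8 at an adjusted p under 0.05, where 0.469% of all 18769 probe sets were called. At an unadjusted p under 0.05 it called 0 of 8, where 12.4% of all passed. In LID RNAi against wild type the counts were again 0 of 8 and 0 of 8, beside 2.34% and 16.9% of all probe sets. In GFP RNAi against wild type they were 0 of 8 and 0 of 8, beside 0.863% and 11.4%. The smallest adjusted p of a corepressor probe set was 0.57, 0.381 and 0.529 in these comparisons. With 2 arrays against 2, an exact permutation test of a single value cannot go below a two-sided p of 0.333.

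**Figure D1:**
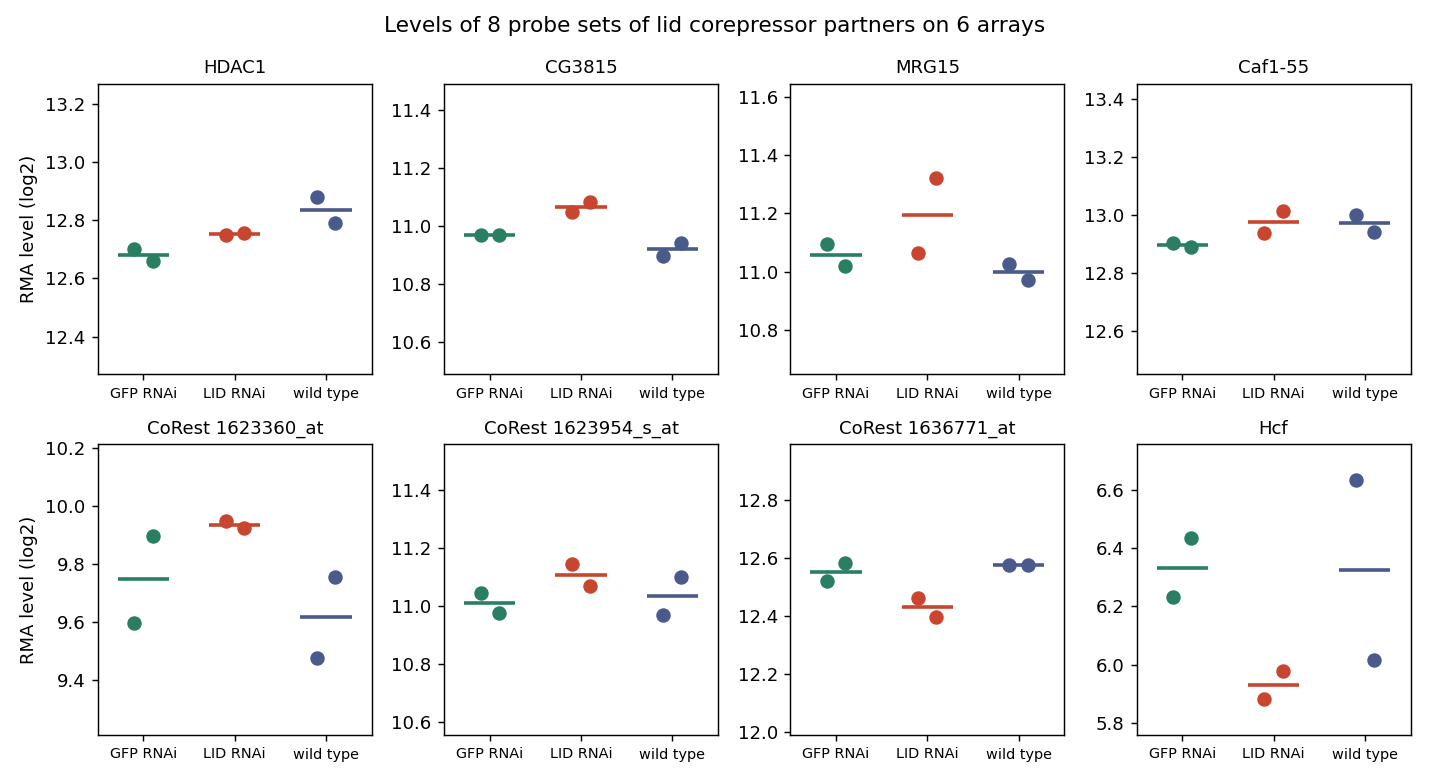
RMA log2 level (y axis, 1 log2 unit tall in each panel) of each corepressor probe set on the 2 arrays of GFP RNAi, LID RNAi and wild type (x axis). Points are arrays and bars are group means. Levels of different panels are not comparable, and HDAC1 spans 12.66 to 12.88 while Hcf spans 5.88 to 6.64.

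The deacetylase HDAC1 was at 12.70 and 12.66 on the GFP RNAi arrays, at 12.75 and 12.76 on the LID RNAi arrays and at 12.88 and 12.79 on the wild type arrays. The 3 groups did not overlap, with GFP RNAi lowest, LID RNAi between and wild type highest. In each pair 19% to 26.7% of all probe sets lay apart in a given direction. The share with all 3 groups apart was not counted. LID RNAi stood at 105% of GFP RNAi, with a 95% interval from 92.2% to 120%. It stood at 94.5% of wild type, with an interval from 82.9% to 108%. That log2 difference of -0.08 was -0.0095 with each array centred on its median, and ranged from -0.13 to -0.04 with single arrays left out. The largest of the HDAC1 differences lay between the groups without lid knockdown, at -0.15 ± 0.07 (SE, n = 2 arrays per group) for GFP RNAi against wild type (limma adjusted p = 0.529).

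Caf1-55, a WD-repeat protein that binds histones in many complexes, had LID RNAi values of 12.94 and 13.02, GFP RNAi values of 12.91 and 12.89 and wild type values of 13.00 and 12.94. The LID RNAi arrays lay above those of GFP RNAi and overlapped with wild type. The difference was 0.08 ± 0.07 (SE) against GFP RNAi and 0.00 ± 0.07 against wild type, with limma adjusted p of 0.731 and 0.987. With each array centred on its median the second of these was 0.08. The span over all 6 arrays was 0.13, the narrowest among the 8 probe sets.

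CG3815, the gene of the PHD finger protein Pf1, was at 11.05 and 11.08 with LID RNAi, compared with 10.97 and 10.97 with GFP RNAi and 10.90 and 10.94 for wild type. Both LID RNAi arrays lay above all 4 control arrays. The difference was nevertheless small, at 0.10 ± 0.07 (SE) against GFP RNAi and 0.15 ± 0.07 against wild type (limma adjusted p = 0.647 and 0.382). The 95% interval reached at most 121% of GFP RNAi and 125% of wild type. The difference from wild type was 0.22 with each array centred on its median.

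MRG15, the chromodomain partner of Pf1, had LID RNAi values of 11.07 and 11.32, GFP RNAi values of 11.10 and 11.02 and wild type values of 11.03 and 10.97. Its LID RNAi arrays differed by 0.26 from each other, with replicate 2 above every other array and replicate 1 within the range of GFP RNAi. The difference from GFP RNAi was 0.14 ± 0.11 (SE, limma adjusted p = 0.695), and without LID RNAi replicate 2 it was 0.0075. Against wild type it was 0.20 ± 0.11 (adjusted p = 0.463), and 0.07 without that array. LID RNAi replicate 2 also had the widest gap between the 3′ and 5′ ends of GAPDH, 2.96 against 2.39 to 2.65 on the other 5 arrays. The gaps of actin (0.64) and eIF-4a (1.62) were widest on that array too. The part of this gap in the MRG15 value and in the other LID RNAi values was not tested.

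**Figure D2:**
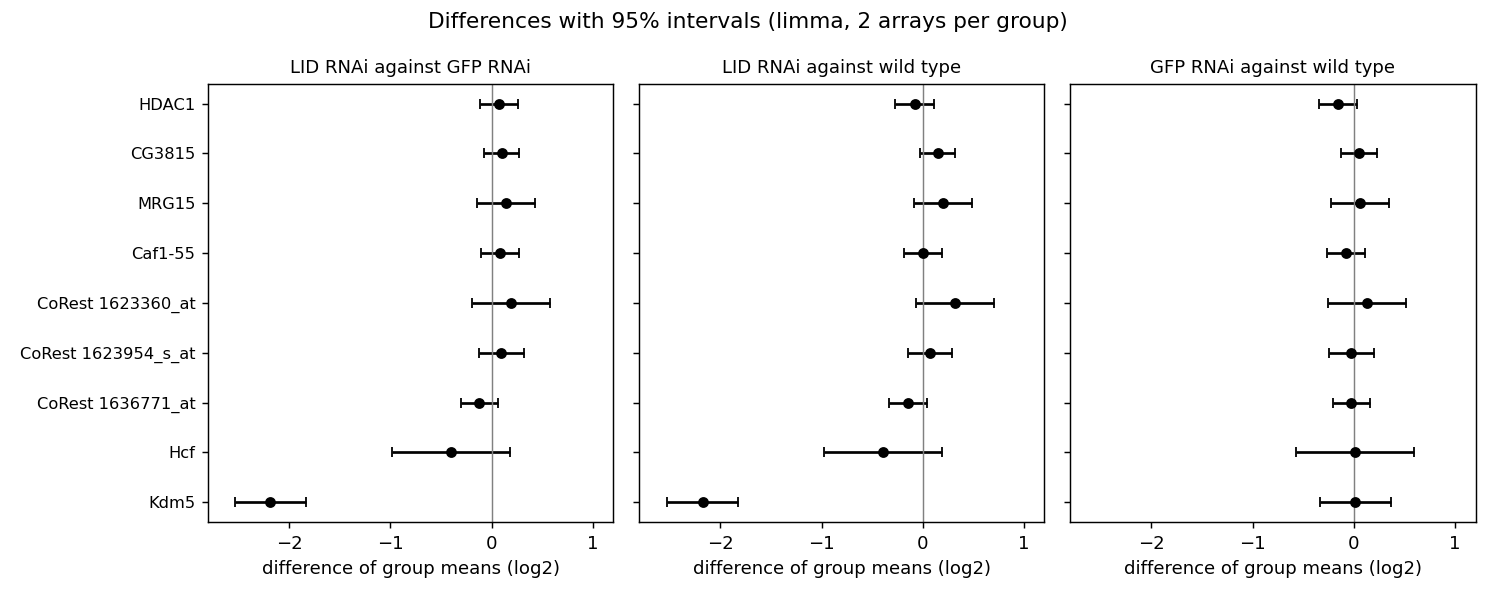
Difference of group means in log2 (x axis) for each corepressor probe set and for Kdm5 (y axis) in the 3 comparisons. Points are estimates and bars are 95% intervals from limma. The intervals of the 8 corepressor probe sets include 0 in each panel, while Kdm5 stands at -2.19 and -2.17 in the first and second panels.

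The probe sets of CoRest, the corepressor that bridges HDAC1 and a lysine demethylase, had estimates of unlike sign, none of which passed. Probe set 1623360_at was at 9.95 and 9.92 with LID RNAi, above 9.60 and 9.89 with GFP RNAi and 9.48 and 9.76 for wild type. Probe set 1636771_at was at 12.46 and 12.40 with LID RNAi, below 12.52 and 12.58 with GFP RNAi and 12.58 and 12.58 for wild type. Probe set 1623954_s_at was at 11.14 and 11.07 with LID RNAi, compared with 11.04 and 10.98 with GFP RNAi and 10.97 and 11.10 for wild type, with overlap between LID RNAi and wild type.

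For LID RNAi against GFP RNAi the CoRest differences were 0.19 ± 0.15, 0.10 ± 0.08 and -0.12 ± 0.07 (SE, n = 2 arrays per group) for 1623360_at, 1623954_s_at and 1636771_at. Limma adjusted p-values were 0.686, 0.726 and 0.588. Against wild type the differences were 0.32 ± 0.15, 0.07 ± 0.08 and -0.15 ± 0.07, with adjusted p of 0.381, 0.735 and 0.403. The estimate for 1623360_at rested on single arrays, since it was 0.04 against GFP RNAi without GFP RNAi replicate 1 and 0.34 without replicate 2. Against wild type it ranged from 0.18 to 0.46 with single arrays left out, and 1623954_s_at from 0.0043 to 0.14. With each array centred on its median, 1636771_at stood at -0.07 against wild type and 1623954_s_at at 0.14.

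**Figure D3:**
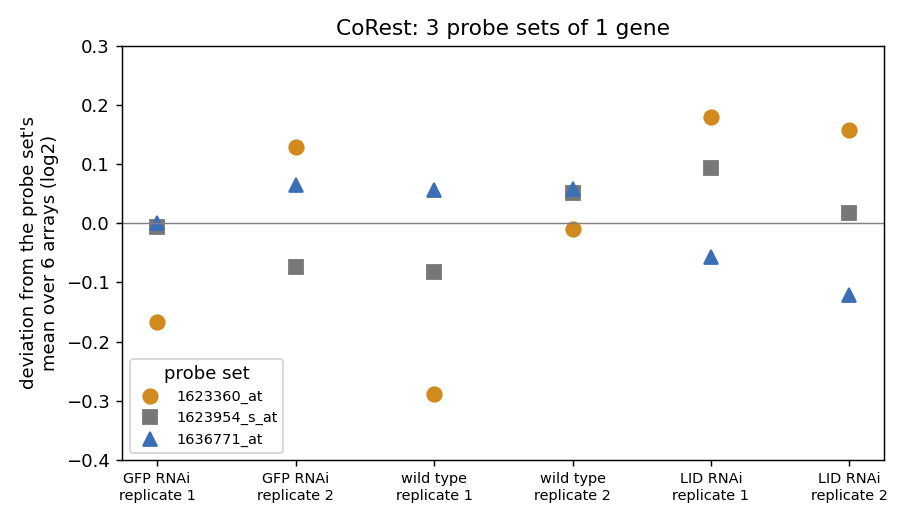
Deviation of each CoRest probe set from its own mean over 6 arrays, in log2 (y axis), on each array (x axis). On both LID RNAi arrays 1623360_at lies above 0 (0.18 and 0.16) and 1636771_at below 0 (-0.06 and -0.12).

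Hcf, the adaptor named after its human relative host cell factor, had the lowest LID RNAi level relative to controls. The LID RNAi arrays gave 5.88 and 5.98, the GFP RNAi arrays 6.23 and 6.43 and the wild type arrays 6.64 and 6.01. Both LID RNAi arrays lay below all 4 control arrays, but wild type replicate 2 was only marginally higher than LID RNAi replicate 2. The difference was -0.40 ± 0.22 (SE) against GFP RNAi and -0.40 ± 0.22 against wild type (limma adjusted p = 0.57 and 0.466). LID RNAi stood at 75.6% of GFP RNAi with a 95% interval from 50.5% to 113%. The wild type arrays differed by 0.62, and the difference from wild type was -0.71 without wild type replicate 2 and -0.09 without replicate 1. Hcf was also the dimmest of the probe sets, 1.38 above the background level of 4.82, which is the 95% point of 27 probe sets for Bacillus subtilis transcripts.

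The width of the intervals gives the precision of 2 arrays per group, within the limit on replicates given above. For LID RNAi against GFP RNAi, 7 of 8 intervals lay within a 1.5-fold change in either direction and 8 of 8 within a 2-fold change. For LID RNAi against wild type, 6 of 8 lay within 1.5-fold and 8 of 8 within 2-fold, and CoRest 1623360_at and Hcf were the exceptions at 1.5-fold. For GFP RNAi against wild type these counts were 7 and 8 of 8. The median absolute difference of the 8 probe sets was 0.11 for LID RNAi against GFP RNAi, beside 0.12 over all 18769, and 0.15 beside 0.14 for LID RNAi against wild type. For GFP RNAi against wild type it was 0.05 beside 0.11.

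Groups of 2 often fail to overlap on these arrays. Between LID RNAi and GFP RNAi, 5 of 8 corepressor probe sets were higher without overlap, where 21.2% of all were, and 2 of 8 were lower, where 20.7% of all were. Between LID RNAi and wild type, 3 of 8 were higher (20.7% of all) and 3 of 8 lower (26.4% of all). Between GFP RNAi and wild type, 1 was higher (19% of all) and 2 were lower (26.7% of all). Against all 4 control arrays together, both LID RNAi arrays lay above for 2 of 8, CG3815 and CoRest 1623360_at, beside 10.6% of all probe sets. They lay below for 2 of 8, Hcf and CoRest 1636771_at, beside 12.8%. The comparisons share arrays, so their counts are not independent. The median difference of the 8 probe sets was 0.09, 0.04 and -0.01 in the 3 comparisons, beside 0.01, -0.01 and -0.02 over all probe sets.

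The other measured genes of the Sin3 complex and of the histone chaperones found with Lid had no call apart from Kdm5 itself. Of 8 measured genes 1 fell, Kdm5, against both controls, and the other 7 did not pass. The structural subunit genes Sap130 and Sap30 differed from GFP RNAi by -0.09 and 0.04 (limma adjusted p = 0.695 and 0.904). CG14220, the homolog of the subunit Sds3, was at 10.003 and 9.91 with LID RNAi, compared with 9.62 and 9.69 with GFP RNAi and 9.59 and 9.45 for wild type. Its LID RNAi arrays lay above all controls, by 0.30 ± 0.09 (SE) against GFP RNAi and 0.43 ± 0.09 against wild type, and neither passed (adjusted p = 0.28 and 0.0958). CG15356, listed as EMSY in the gene table, differed by 0.43 ± 0.17 from GFP RNAi (adjusted p = 0.416) and had equal means of 7.90 in LID RNAi and wild type. The histone chaperone genes asf1 and Nap1 stood at 0.21 and -0.01 against GFP RNAi, and htk, which encodes an ARID domain protein, at -0.02.

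Around CoRest, 0 of 4 measured genes passed in any comparison, a list that also held Bap170 of the PBAP remodeller. Su(var)3-3, the demethylase partner of CoRest, had the largest difference from GFP RNAi, at -0.16 ± 0.10 (SE, limma adjusted p = 0.613). In a list for NuRD, a complex that contains HDAC1 and Caf1-55, and for dMec, 0 of 4 measured genes passed. The dMec gene MEP-1 was not analysed here. The subunit gene simj was at 11.34 and 11.33 with LID RNAi, below 11.62 and 11.66 with GFP RNAi and 11.44 and 11.45 for wild type. Its difference was -0.30 ± 0.07 from GFP RNAi and -0.11 ± 0.07 from wild type (adjusted p = 0.194 and 0.504). The core remodeller Mi-2 read 12.32 to 12.39 on the 6 arrays.

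A list of other deacetylase genes, which held 3 further HDAC genes, 5 sirtuins and the corepressor gene Smr, had 0 of 9 past the threshold in each comparison. HDAC3, the other class I enzyme beside HDAC1, was not analysed here. HDAC4, a class IIa enzyme, had the largest difference, with LID RNAi values of 8.45 and 8.77, GFP RNAi values of 9.01 and 9.35 and wild type values of 8.87 and 9.49. The difference was -0.57 ± 0.26 (SE, limma adjusted p = 0.487) from GFP RNAi and -0.57 ± 0.26 (adjusted p = 0.373) from wild type. The sirtuin gene Sirt6 stood at 0.27 and 0.24 against these controls (adjusted p = 0.295 and 0.247).

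Partners of the shared subunits also had 0 calls in each list and comparison, which for lists of this size is near the 0.469% to 2.34% called over all probe sets. Among 12 genes around MRG15, mostly of the Tip60 acetyltransferase complex, the median difference from GFP RNAi was 0.09, beside 0.01 over all probe sets. YL-1, which encodes a histone variant chaperone of that complex, had the largest difference, 0.34 ± 0.07 (SE, limma adjusted p = 0.197) from GFP RNAi and 0.02 from wild type. Among 17 genes around Caf1-55 the median was 0.04, and mip40, a subunit gene of the dREAM repressor, read 12.12 and 12.22 in LID RNAi against 11.74 to 11.82 on the control arrays. Its differences of 0.42 ± 0.08 and 0.39 ± 0.08 did not pass (adjusted p = 0.144 and 0.0957). E(z), the Polycomb methyltransferase gene that meets Caf1-55 in PRC2, stood at 0.04 against GFP RNAi. Among 14 genes around Hcf the median was -0.01, and Atac2, an acetyltransferase of the ATAC complex, had the largest difference, 0.25 ± 0.12 (adjusted p = 0.505). Of 5 corepressor genes that recruit deacetylases to DNA-bound factors, 0 passed. All 5 stood below 0 against GFP RNAi, where 52.1% of all probe sets stood above 0. Their median was -0.10, with CtBP at -0.0017 and gro at -0.05. Hairless (H) had the largest difference, -0.20 ± 0.08 (adjusted p = 0.393).

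**Figure D4:**
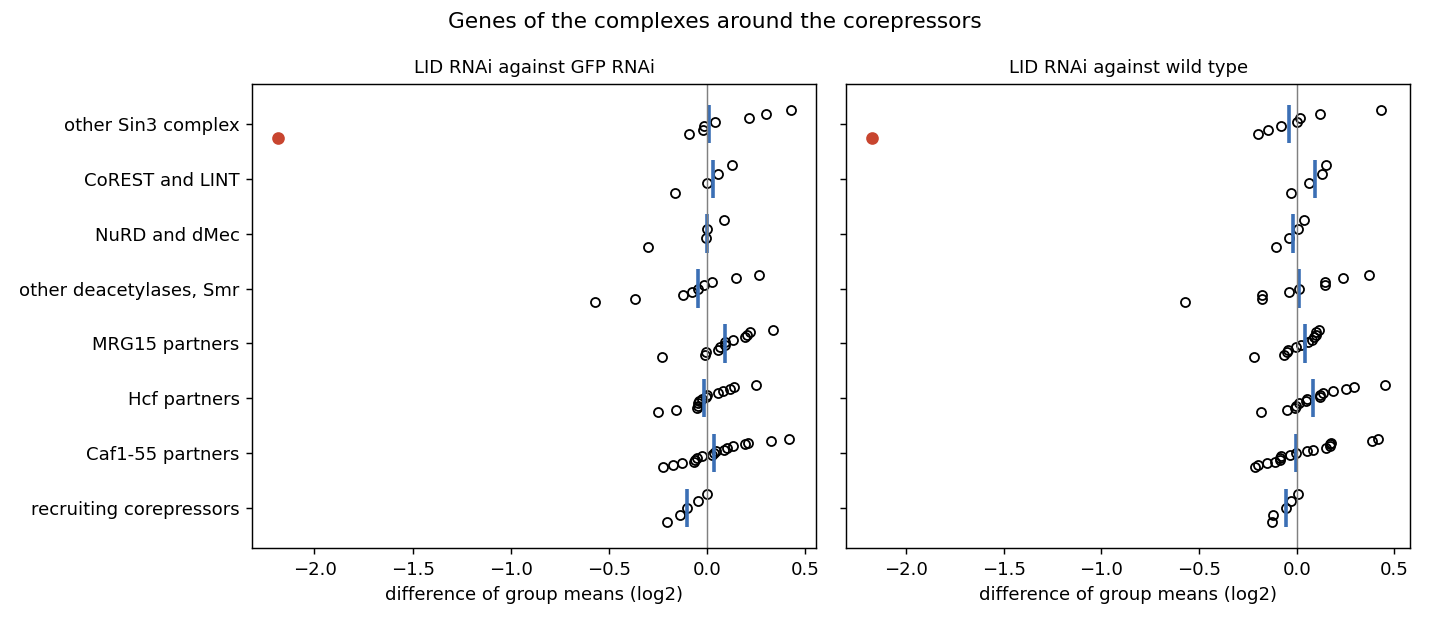
Difference of group means in log2 (x axis) for genes of 8 lists (y axis), for LID RNAi against GFP RNAi and against wild type. Open points did not pass an adjusted p of 0.05 in limma, the filled point is Kdm5, and blue bars are list medians. Kdm5 at -2.19 and -2.17 is the 1 filled point in each panel.

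Of the labelled tissue, 11 of 11 measured wing disc genes, among them vg, nub and ap, lay above background on all 6 arrays, with a summed level of 15.34 to 15.45 (log2 of summed linear values). Being above background did not set them apart, since all measured markers of fat body (6), trachea (7), muscle (6) and nervous system (8) were so too. None of the wing disc genes passed, and rn, a wing and leg patterning factor, had the largest difference from GFP RNAi at 0.18 ± 0.10 (SE, limma adjusted p = 0.55). Haemocyte markers were higher in LID RNAi for 10 of 12 genes against GFP RNAi, where 52.1% of all probe sets were higher. Against wild type 9 of 12 were higher, where 48% of all were. The 9 include srp, with means of 7.48 in both groups. The haemocyte list had a summed level of 14.03 to 14.34 with LID RNAi, 13.26 to 13.55 with GFP RNAi and 12.84 to 13.57 for wild type. Of this list 1 gene rose against wild type, lz, a crystal cell factor (limma adjusted p = 0.0346). In that comparison 2.34% of all probe sets were called in either direction. The gene lz was at 5.47 and 5.75 with LID RNAi and at background on the 4 control arrays, so its fold is not measured. The gene gcm was at background on all 6. Tracheal markers summed to 14.02 to 14.07 with LID RNAi, 13.85 to 13.92 with GFP RNAi and 13.74 to 13.77 for wild type. Myoblast and muscle markers summed to 12.41 to 12.52, 12.12 to 12.18 and 12.09 to 12.30 in the same order. Markers of salivary gland, gut and nervous system had summed levels that overlapped between LID RNAi and the controls. The salivary gland gene ng1 rose against both controls (limma adjusted p = 0.0338 and 0.00846), to 5.36 and 5.41 from background on the 4 control arrays. The gut gene LysX passed as well but was at background on all 6 arrays and has no measured level. The nervous system gene ase fell by 1.08 against wild type (limma adjusted p = 0.0438). For ase, GFP RNAi also stood at -0.77 against wild type (adjusted p = 0.143), and LID RNAi at -0.31 against GFP RNAi (adjusted p = 0.51). The largest differences from GFP RNAi in the other lists, Mlc1 of muscle (1.07), rib of trachea (0.85), nrv3 of the nervous system (0.70) and FASN1 of fat body (0.55), did not pass (adjusted p = 0.377, 0.678, 0.685 and 0.486). The summed levels of the haemocyte, tracheal and muscle lists separated the LID RNAi arrays from the controls. CG3815, Hcf and CoRest 1623360_at and 1636771_at did so too. Such sums weigh the brightest genes most, and single genes of these lists went both ways. Against wild type, 5 of 7 tracheal and 4 of 6 muscle genes were higher, where 48% of all probe sets were. The part of these cell types in the corepressor values was not tested.

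Single arrays carried much of the spread. Replicate 2 differed from replicate 1 by 0.28 for CoRest 1623360_at and -0.62 for Hcf in wild type. In GFP RNAi the steps were 0.30 for CoRest 1623360_at and 0.20 for Hcf, and in LID RNAi 0.26 for MRG15 and 0.10 for Hcf. The remaining corepressor probe sets differed by at most 0.13 between replicates. The median step of the 8 probe sets was 0.07 in each group, beside 0.12, 0.15 and 0.11 over all probe sets in GFP RNAi, LID RNAi and wild type.

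Likeness of pattern was taken over the 6 arrays. For each corepressor probe set the 2 most similar genes were taken by Pearson correlation over 6 arrays, among 8969 other genes above background. They were CG4619 and CG12929 for HDAC1 (r = 0.994 and 0.993), Ctu2 and Surf4 for CG3815 (0.987 and 0.987), and l(2)k09022 and Cpsf6 for MRG15 (0.991 and 0.986). For Caf1-55 they were FASN1 and SmF (0.987 and 0.976), and for Hcf dUTPase and CG15739 (0.98 and 0.971). CoRest 1623360_at was nearest to fs(2)ltoPP43 and Mst27D (0.985 and 0.983), 1623954_s_at to CG4332 and CG3652 (0.988 and 0.982), and 1636771_at to qkr54B and CG8204 (0.995 and 0.994). Between 4 and 117 genes exceeded 0.95 for a given probe set, which with 6 arrays that share groups is a description only.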

How the data were processed

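The authors deposited RMA expression values in log2, 1 column per array; the submitters' processing notes name RMA without a version. Per the labels, each sample started from 25 ng of total RNA, which was amplified and labelled with biotin. Of 18952 probe sets, 183 manufacturer controls were left out of the tests. Gene names came from the platform's probe table (13647 tested probe sets with 1 symbol, 402 with several, 4720 with none) and were updated through gene IDs of the assembly Release 6 plus ISO1 MT. Samples were grouped by title.

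All 18769 probe sets and 6 arrays entered 1 linear model with a mean for each group in limma 3.58.1 in R 4.3.3 (3 residual and 1.77 prior degrees of freedom). Adjusted p-values are two-sided Benjamini-Hochberg values over all probe sets. Intervals are 95% intervals of single probe sets from the moderated fit. The model code was checked on simulated data first. For listed genes with several probe sets, the probe set of highest mean level was used. Named are all corepressor probe sets, Kdm5, per list up to 4 genes past the threshold or otherwise the one with the largest difference from GFP RNAi, and the 2 most similar genes per probe set. The other Sin3 complex genes, Mi-2, Sirt6, E(z), Sam-S, gcm and the examples of wing disc markers were added after values were seen. Members and lists were chosen with earlier results of these data known. The number of arrays limits the precision. Alternatives were another quantile normalization, median centring, a filter on dim probe sets, fits on 2 groups, an intensity trend, a robust prior, a replicate block and each array left out. No sequences were used here.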

Additional observations from a re-analysis of the deposited data

How the results depend on the processing

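The count of corepressor probe sets called stayed at 0 of 8 in each comparison under all 13 alternatives, where limma's lowest adjusted p was 0.236, 0.105 and 0.156 in the comparisons of LID RNAi with GFP RNAi, of LID RNAi with wild type and of GFP RNAi with wild type, and at most 1, 2 and 1 of 8 had an unadjusted p under 0.05. Apart from arrays left out, 165 differences of these probe sets kept their sign and 3 near 0 did not. Most of the 165 could not change, since only another quantile normalization and median centring alter the group means. Caf1-55 in LID RNAi against wild type was -0.0091 after another quantile normalization. With median centring, CoRest 1623954_s_at and 1636771_at in GFP RNAi against wild type were 0.0125 and 0.0121. With single arrays left out, Caf1-55 in LID RNAi against wild type ranged from -0.0355 to 0.0433. In GFP RNAi against wild type, CoRest 1623360_at ranged from -0.0179 to 0.279, 1623954_s_at from -0.091 to 0.0419, 1636771_at from -0.057 to 0.0072 and Hcf from -0.302 to 0.319.

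Counts over all probe sets (88, 439 and 162, in the order above) were less stable. They were 3, 99 and 90 in fits on 2 groups and 247, 784 and 325 with an intensity trend, and the first was 189 with dim probe sets left out. With the replicate block they were 12, 200 and 41. Deviations of same-numbered arrays correlated at 0.298 (GFP RNAi with LID RNAi), 0.065 (GFP RNAi with wild type) and 0.223 (LID RNAi with wild type). Since 1 of these was low and no label ties the numbers to a shared batch, the numbers were not treated as pairs. Arrays left out gave 0 to 6, 24 to 324 and 4 to 90, where the 0 stood beside 1644 to 2197 at an unadjusted p under 0.05. Kdm5 stayed at -2.19 against GFP RNAi without a call in the fit on 2 groups (adjusted p = 0.131) and with the replicate block (0.082). Its ranges without single arrays were -2.35 to -2.02, -2.34 to -2.01 and -0.0543 to 0.0805. The cause of these shifts was not tested, beyond the fewer arrays of some fits.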

Other observations

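Genes of the methionine and S-adenosylmethionine cycle, which supplies methyl groups, were listed because Sin3 is known to act on them in fly cells. Of 11 measured genes, 0 passed in LID RNAi against GFP RNAi in limma, where 0.469% of all probe sets were called. Against wild type 1 fell, where 2.34% of all were called in either direction. That gene was Bhmt, which encodes a homocysteine methyltransferase. The LID RNAi arrays gave 8.63 and 8.41, the GFP RNAi arrays 9.09 and 8.90 and the wild type arrays 9.59 and 9.64. The 3 groups did not overlap, and the share of all probe sets with all 3 apart was not counted. The difference of Bhmt from wild type was -1.09 ± 0.11 (SE, n = 2 arrays per group, limma adjusted p = 0.026). From GFP RNAi it was -0.47 ± 0.11 (adjusted p = 0.217), and GFP RNAi stood at -0.62 against wild type (adjusted p = 0.135). The synthetase gene Sam-S, whose enzyme makes S-adenosylmethionine, stood at 0.04 and 0.15 against GFP RNAi and wild type (adjusted p = 0.88 and 0.439). Gnmt, a glycine methyltransferase gene, had the largest difference from GFP RNAi, 0.94 ± 0.69 (adjusted p = 0.665), with 7.74 and 6.02 on the LID RNAi arrays. Markers of the fat body summed to 14.10 on LID RNAi replicate 1, 13.07 on replicate 2 and 13.30 to 13.90 on the control arrays, and their part in the Gnmt and Bhmt values was not tested.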
